A study of Mus musculus with 6 samples.

Results

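The genes described here drive cells into and out of mitosis: the mitotic cyclins and their kinase Cdk1, the enzymes that switch Cdk1 on and off, the factors that transcribe these genes in G2, and the anaphase-promoting complex (APC/C), which ends mitosis. They were taken by symbol from a list of 39 genes, of which 38 were found among the 23337 genes of the deposited table. All 38 passed the filter on low counts, which left 9653 genes to test. *Bora*, whose product helps Aurora A kinase activate Plk1, is in the table only under its older symbol *6720463M24Rik*. It is described below but is not counted among the 38.

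RNA was sequenced from germinal center (GC) B cells of mixed bone marrow (BM) chimeras, mice whose blood system was rebuilt for 8 weeks from a mixture of 2 donors. The chimeras were immunized with NP-CGG, a protein carrying the hapten NP, in alum and analyzed at day 11, and 50000 cells per sample were sorted as B220+, GL7+ and Fas+ with low IgD and CD38. The *Hvem*-/- samples (replicates 2, 4 and 6) came from cells of an *Hvem*-deficient donor line labelled C57BL/6, which lack HVEM, the receptor encoded by *Tnfrsf14*. The *Hvem*-/- line of most of the study's experiments derives from a floxed line whose strain name is the mixed B6;SJL. For a single experiment the study made mixed chimeras from a separate *Hvem*-deficient line. Its methods do not say which line gave these samples. The study's methods give irradiated WT mice as hosts. The WT samples (replicates 1, 3 and 5) came from C57BL/6 WT cells with another form of the CD45 marker, given as CD45.1/2 in the labels and as CD45.1 in the study's text. Genotype and donor line coincide, so the loss of HVEM and other differences between the donors cannot be told apart. The study gives a minimum age for the adult CD45.1 WT mice it bought, but no source used here gives the age of these chimeras when analyzed. The study places both genotypes in the same chimeras without saying which samples share a mouse. Nothing states that the 3 samples of a genotype came from separate mice, so the p-values cover only how these samples spread, which may be technical.

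Cyclin A2 and cyclin B1 bind Cdk1 and carry the cell through G2 into mitosis. Wee1 and Myt1 kinases hold Cdk1 inactive by phosphorylating it, and the Cdc25 phosphatases remove those phosphates. The APC/C is a large ubiquitin ligase that, with Cdc20 or Cdh1 as coactivator and Ube2C and Ube2S as partner enzymes, marks cyclin B1 and securin for destruction, so that chromosomes separate and the cell leaves mitosis. GC B cells are among the fastest dividing cells of the body. They divide mostly in the dark zone of the GC, in amounts set by the help they received from T cells in the light zone.

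Many genes of this kind are transcribed late in the cell cycle through CCAAT boxes, which bind NF-Y, and a cell cycle homology region (CHR), which binds the MuvB complex through its Lin54 subunit. The promoters of *Ccnb1* and *Ube2c*, which passed the threshold, and of *Ccnb2* and *Cdc20*, which belong to the same role groups and did not, are shown to set these letters side by side. They are RefSeq windows of mouse build GRCm38.p6, from 250 bases before to 50 bases after the start site, 5′ to 3′ on the strand of the gene. Capitals mark CCAAT or its reverse ATTGG, the CHR as TTTGAA or its reverse TTCAAA, and the second CHR form TTTAAA, which reads the same on both strands. The windows lie at chr13:100786437-100786736 (minus strand) for *Ccnb1*, chr9:70421505-70421804 (minus) for *Ccnb2*, chr2:164769679-164769978 (plus) for *Ube2c* and chr4:118437294-118437593 (minus) for *Cdc20*.
Ccnb1: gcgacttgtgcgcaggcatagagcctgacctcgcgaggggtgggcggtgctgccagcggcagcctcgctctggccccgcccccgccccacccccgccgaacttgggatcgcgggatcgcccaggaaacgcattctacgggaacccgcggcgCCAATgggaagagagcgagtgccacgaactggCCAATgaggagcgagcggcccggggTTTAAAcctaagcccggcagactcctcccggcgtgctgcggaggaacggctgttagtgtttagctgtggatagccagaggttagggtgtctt
Ccnb2: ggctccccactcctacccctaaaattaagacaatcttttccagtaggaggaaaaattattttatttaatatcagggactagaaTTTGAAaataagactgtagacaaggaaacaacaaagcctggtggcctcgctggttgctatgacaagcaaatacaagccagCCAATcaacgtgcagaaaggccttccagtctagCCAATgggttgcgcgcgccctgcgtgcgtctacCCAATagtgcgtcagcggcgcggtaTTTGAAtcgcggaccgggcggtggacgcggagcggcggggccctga
Ube2c: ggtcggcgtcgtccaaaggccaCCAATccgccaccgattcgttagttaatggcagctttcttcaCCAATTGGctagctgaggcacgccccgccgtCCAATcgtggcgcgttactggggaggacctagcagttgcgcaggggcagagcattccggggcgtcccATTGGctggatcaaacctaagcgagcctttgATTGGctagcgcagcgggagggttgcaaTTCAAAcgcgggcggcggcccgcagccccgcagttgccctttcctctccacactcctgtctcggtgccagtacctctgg
Cdc20: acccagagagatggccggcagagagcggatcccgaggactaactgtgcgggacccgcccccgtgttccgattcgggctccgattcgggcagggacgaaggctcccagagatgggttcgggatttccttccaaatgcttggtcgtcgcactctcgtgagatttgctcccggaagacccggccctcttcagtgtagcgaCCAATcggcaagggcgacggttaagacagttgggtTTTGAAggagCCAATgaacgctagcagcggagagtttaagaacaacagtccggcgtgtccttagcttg

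*Ccnb1* has a CCAAT box 99 and another 67 bases before the start site, no TTTGAA, and a TTTAAA at 42 bases before it. *Ccnb2* has CCAAT boxes 87, 54 and 21 bases before the start and TTTGAA both 167 bases before the start and 5 bases into the transcribed side. *Ube2c* holds 6 CCAAT boxes, a pair of which overlap each other at 186 and 183 bases before the start, and 1 CHR, 29 bases before it. *Cdc20* has 2 CCAAT boxes and a CHR 18 bases before the start. The search is a description of letters in a window, not of bound sites.

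RefSeq windows were matched for 31 of the 38 genes, 35 windows in all. *Ccna2*, a cyclin gene that passed the threshold, was among those without a window. CCAAT stood in 23 of the 35 (65.7%), against 37.4% of all 32851 windows, from 27025 genes, in the RefSeq promoter set, and TTTGAA in 10 (28.6%), against 17.9%. Both stood together in 8 (22.9%), against 6.95% of all windows. The form TTTAAA was searched after the windows had been seen and stood in 4 of the 35 windows (11.4%), against 13.2% of all. By role group, all 5 windows of the cyclin, Cdk1 and Cks genes held a CCAAT box and 3 a CHR, whereas of the 13 windows of APC/C core subunits 6 held a CCAAT box, 1 a CHR and none both. The window of *G2e3*, which also passed the threshold, held none of these letters. Windows follow RefSeq start sites, and GENCODE, another annotation, can start a gene elsewhere. GENCODE starts *G2e3* at chr12:51348061, inside its window (chr12:51347980-51348279) and before the RefSeq start. For *Ccnb1* the GENCODE start, chr13:100786570 on the minus strand, also lies before the RefSeq start and inside the window. Distances to the start depend on this choice.

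The libraries held 2505918 to 3321048 reads in *Hvem*-/- and 2557741 to 3636163 reads in WT. *Tnfrsf14* had 0, 0 and 4 reads in the *Hvem*-/- libraries, against 13, 11 and 17 reads in the WT libraries. Of 7 GC B cell markers 6 were in the table. Their summed level was 2281 to 2388 CPM (reads scaled to the size of the library) in *Hvem*-/- and 2264 to 2345 CPM in WT. Within this sum *Rgs13* was higher in *Hvem*-/- (log2 fold change 0.86, adjusted p = 0.0283 from edgeR). *S1pr2* was lower (-0.31, adjusted p = 0.352 from edgeR). Both had an unadjusted p under 0.05, and 0 of the 6 passed the threshold of 0.01. The 5 general B cell markers summed to 2400 to 2757 CPM in *Hvem*-/- and 2710 to 3137 CPM in WT. Their median log2 fold change was -0.30, and *Cd79a*, *Cd79b* and *Pax5* were lower at an unadjusted p under 0.05, while 0 of the 5 passed in edgeR. Of 12 T cell markers 11 were in the table, none at 0 in every sample, and their sum was 103 to 159 CPM in *Hvem*-/- and 209 to 227 CPM in WT. The 7 follicular B cell markers in the table summed to 251 to 268 CPM in *Hvem*-/- and 336 to 427 CPM in WT, with *Fcer2a* past the threshold as lower. The 8 of 9 myeloid markers in the table summed to 49.4 to 192 CPM in *Hvem*-/- and 80.5 to 139 CPM in WT. The 5 plasma cell markers, of which *Tnfrsf17* was at 0 in every sample, summed to 249 to 259 CPM in *Hvem*-/- and 230 to 309 CPM in WT. The part of these other cells in the results below was not tested. In sorted bulk samples, more cells in G2 and mitosis and more transcript per cell cannot be told apart.

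Of the 38 genes, 4 rose in *Hvem*-/- GC B cells and 0 fell (edgeR's quasi-likelihood test with Benjamini-Hochberg adjustment over all 9653 genes, threshold 0.01). Among all genes tested, 0.186% rose and 0.0311% fell. The genes that rose were *Ccnb1*, *Ccna2*, *Ube2c* and *G2e3*, by 1.58 to 1.81 times, and each of them also passed in DESeq2, where 0 others of the 38 did. At an unadjusted p under 0.05, 11 of the 38 were higher and 0 lower, against 6.72% of all genes higher and 5.22% lower. In 9 of the 38 every *Hvem*-/- sample lay above every WT sample in log2 CPM and in 0 below, against 8.58% and 8.27% of all genes. The median log2 fold change of the 38 was 0.19, with 27 above 0 and 11 below, beside -0.0058 for all genes tested, of which 49.2% were above 0. The genes were chosen with earlier results of these data known, among them the rise of these 4, so the counts describe the list.

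**Figure D1:**
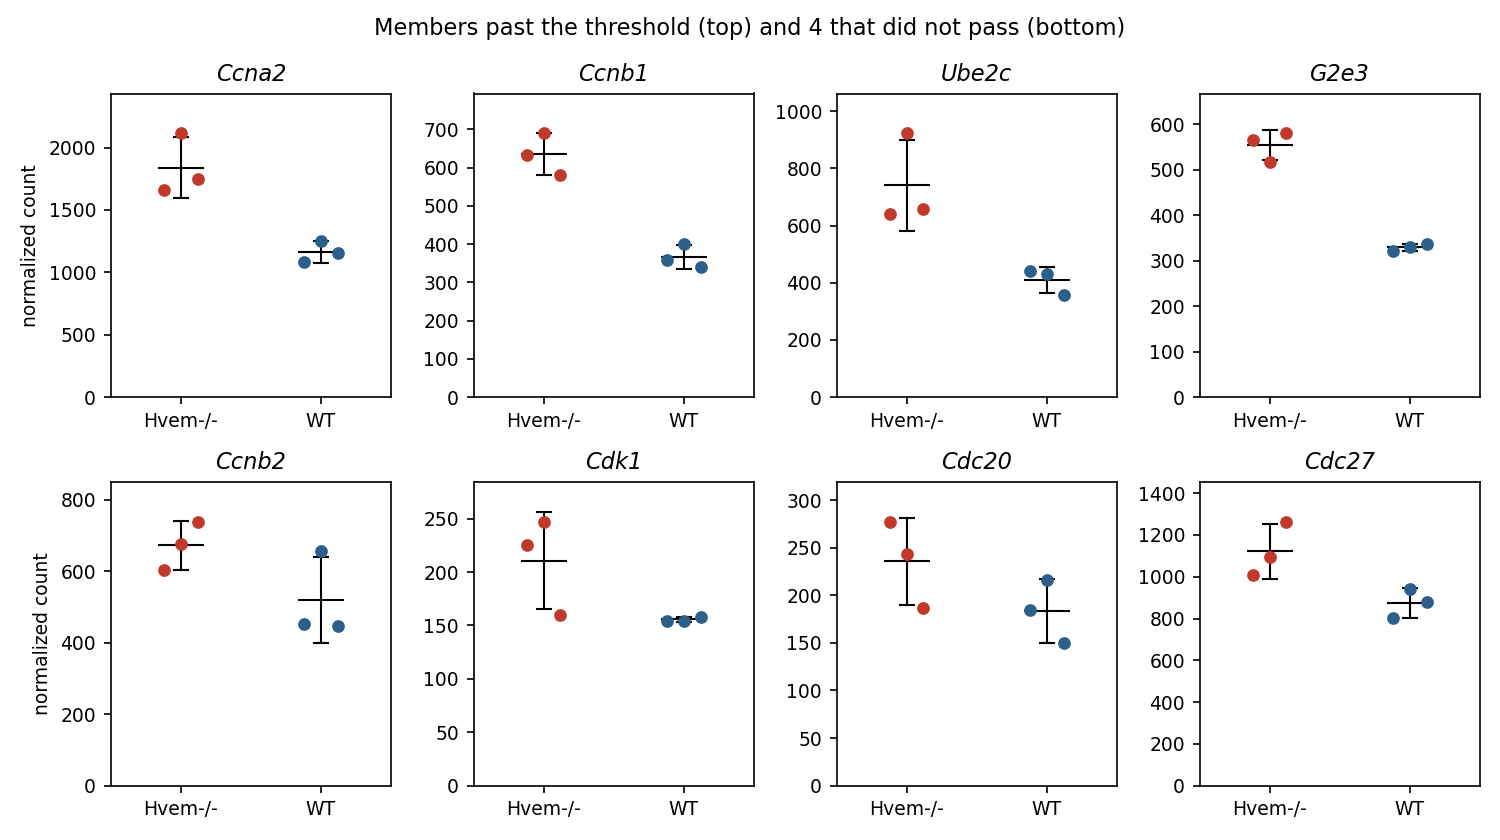
Normalized counts of 8 of the genes in each sample, with *Hvem*-/- at the left and WT at the right of each panel. Points are samples (3 a genotype), the horizontal line is the mean and the bars are 1 SD. In the top row, the 4 genes past the threshold, all *Hvem*-/- samples sit above all WT samples, and in the bottom row *Ccnb2* and *Cdc20* overlap.

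The transcripts of cyclin A2 and cyclin B1, the cyclins that lead the cell into mitosis, rose. *Ccna2* had 1656.2, 2115.8 and 1746.2 normalized counts (reads divided by the sample's size factor) in *Hvem*-/- replicates 2, 4 and 6, against 1080.8, 1252.8 and 1151.5 in WT replicates 1, 3 and 5. The lowest *Hvem*-/- sample was above the highest WT sample. The log2 fold change of *Ccna2* was 0.66 (SE 0.119, adjusted p = 0.0090 from edgeR), a level 1.58 times higher (95% interval 1.33 to 1.88). *Ccnb1* had 633.8, 690.6 and 581.7 normalized counts in *Hvem*-/- samples, against 358.3, 400.6 and 341.3 in WT samples. The genotypes stood well apart, with means of 635 ± 54.5 in *Hvem*-/- and 367 ± 30.5 in WT (SD, n = 3 each). The log2 fold change was 0.79 (SE 0.132, adjusted p = 0.0048 from edgeR), or 1.73 times (95% interval 1.43 to 2.09).

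None of the other 4 genes of the group passed. *Ccnb2*, the other B-type cyclin of dividing cells, had 602.6, 675.5 and 738.9 normalized counts in *Hvem*-/- samples, against 451.1, 658.0 and 448.1 in WT samples. WT replicate 3 reached the *Hvem*-/- range, and the log2 fold change was 0.37 (SE 0.149, adjusted p = 0.313 from edgeR). *Cdk1*, the kinase itself, had 225.0, 247.3 and 159.6 in *Hvem*-/- and 154.3, 154.2 and 158.3 in WT (log2 fold change 0.44, adjusted p = 0.344 from edgeR). *Hvem*-/- replicate 6 was level with the WT samples, which differed from each other by little. Of the small Cks subunits that dock on Cdk1, *Cks2* had 115.8, 155.4 and 192.7 normalized counts in *Hvem*-/- and 97.6, 132.1 and 106.8 in WT (0.46, adjusted p = 0.397). *Cks1b* averaged 261 ± 17.8 in *Hvem*-/- and 255 ± 25.1 in WT (SD, n = 3 each; log2 fold change 0.03). The 95% interval of *Cks1b* ran from -0.29 to 0.35 on the log2 scale. All 6 genes of the group were above 0, with a median log2 fold change of 0.45.

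The enzymes that set the activity of Cdk1 were split, with 2 of 5 above 0 and a median of -0.19. *Cdc25c*, a phosphatase that activates Cdk1 at the entry into mitosis, had 166.0, 204.9 and 144.2 normalized counts in *Hvem*-/- and 125.0, 102.1 and 124.7 in WT. The samples did not overlap, but at a log2 fold change of 0.55 (SE 0.196) it did not pass (adjusted p = 0.258 from edgeR). *Cdc25a* (-0.19) and *Cdc25b* (-0.23), phosphatases of the same family, were below 0, each with overlapping samples. The inhibitory kinase gene *Wee1* had a log2 fold change of 0.15. *Pkmyt1*, which encodes the membrane-bound inhibitory kinase Myt1, had the lowest value of the 38, -0.78, but from 12, 30 and 15 reads in *Hvem*-/- and 37, 23 and 50 reads in WT (SE 0.414, adjusted p = 0.480 from edgeR). Its samples overlapped and its 95% interval ran from -1.64 to 0.087.

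Among the regulators of mitotic entry and the G2 checkpoint, *G2e3* rose. It encodes a ubiquitin ligase named for its expression in G2 and mitosis. *G2e3* had 565.8, 516.6 and 580.5 normalized counts in *Hvem*-/- samples, against 322.2, 329.6 and 336.8 in WT samples. The WT samples lay within a narrow range and the lowest *Hvem*-/- sample was well above it (log2 fold change 0.74, SE 0.131, adjusted p = 0.0070 from edgeR; 1.67 times, 95% interval 1.39 to 2.02). *Mastl*, the Greatwall kinase, had 209.4, 222.5 and 277.8 in *Hvem*-/- and 156.2, 205.3 and 188.9 in WT (log2 fold change 0.36, adjusted p = 0.420). Its substrate *Ensa*, which once phosphorylated inhibits the phosphatase PP2A, had a log2 fold change of -0.15. *Gtse1*, a microtubule-binding protein that restrains p53 in G2, spread widely in both genotypes, 68.6 to 163.4 in *Hvem*-/- and 74.7 to 138.7 in WT (0.30, adjusted p = 0.722). *Bora*, under its older symbol *6720463M24Rik*, had 274.0, 224.3 and 234.1 normalized counts in *Hvem*-/-, against 129.9, 169.8 and 163.5 in WT. Its samples did not overlap, and the log2 fold change of 0.65 (SE 0.173) did not pass (adjusted p = 0.107 from edgeR).

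Among the 4 factors that transcribe G2 and mitotic genes the median log2 difference was 0.19, and none passed. *Foxm1*, the forkhead factor of G2, had 778.6, 809.8 and 604.1 normalized counts in *Hvem*-/- and 559.5, 631.4 and 531.7 in WT. *Hvem*-/- replicate 6 fell within the WT range (log2 fold change 0.35, SE 0.135, adjusted p = 0.303 from edgeR). The MuvB subunits *Lin54* (0.23) and *Lin9* (0.15) and the B-MYB gene *Mybl2* (-0.10) overlapped between the genotypes.

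**Figure D2:**
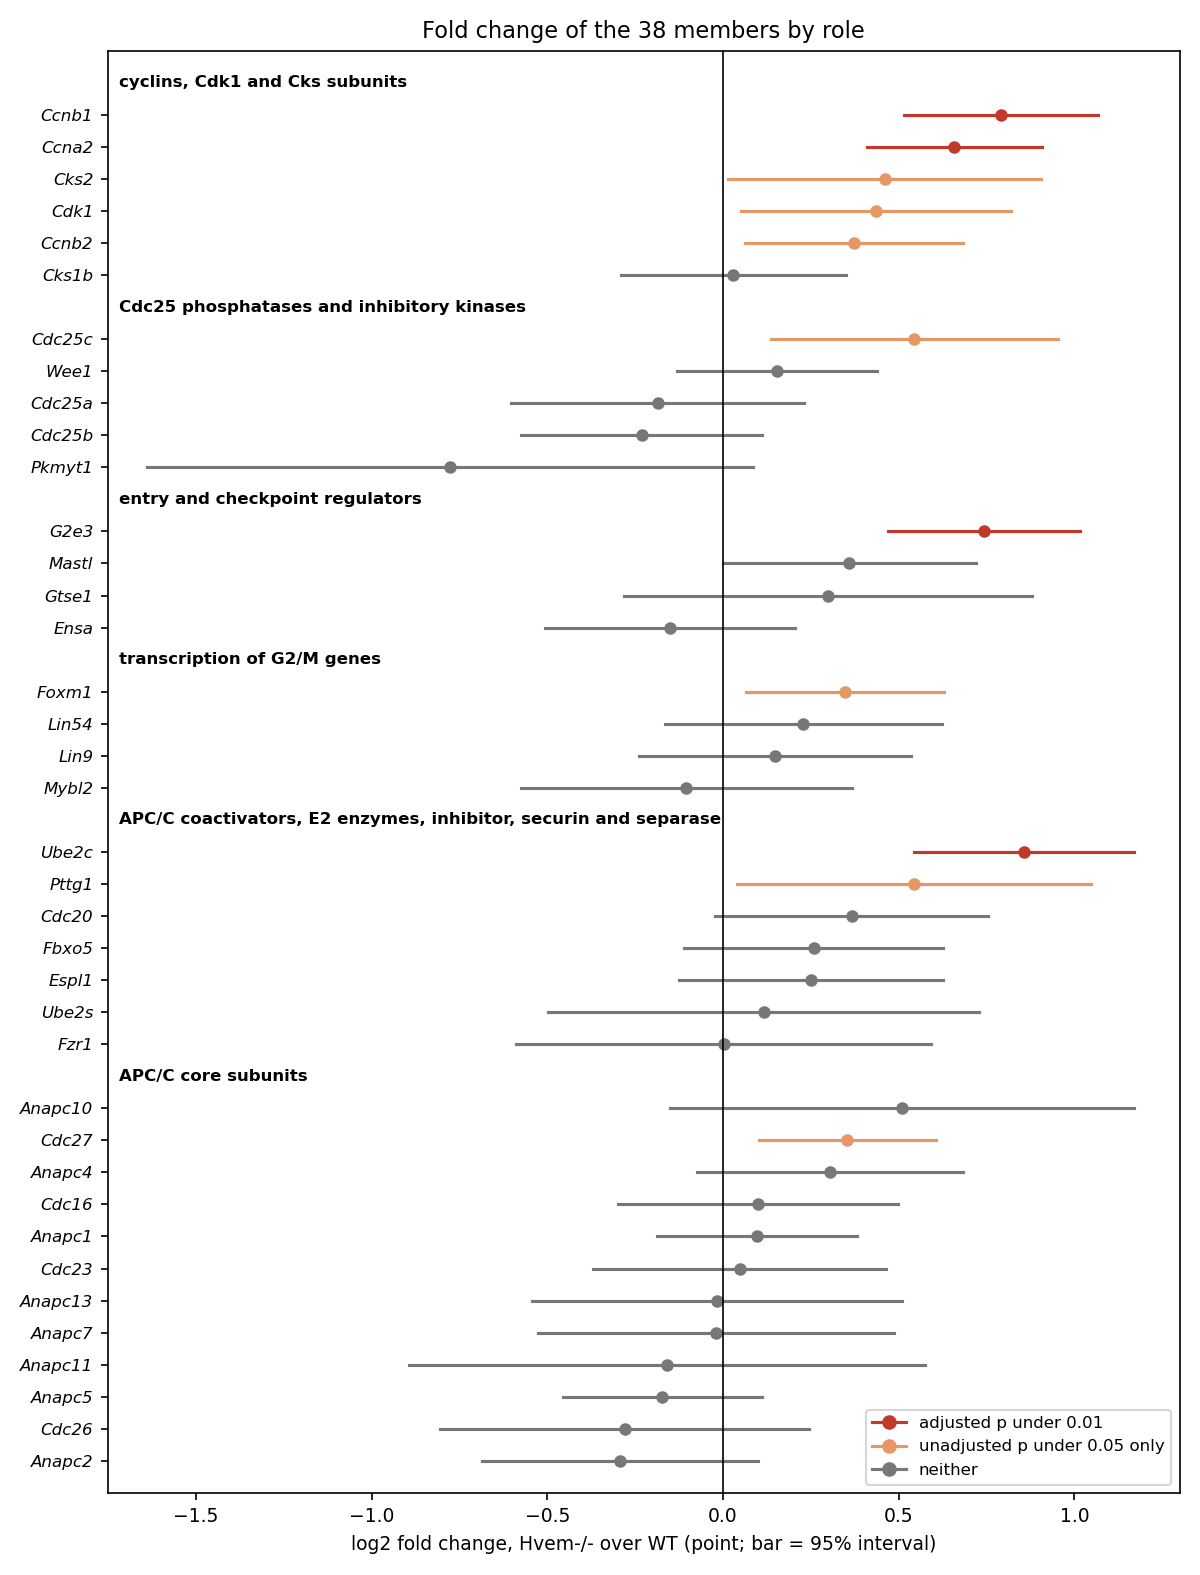
Log2 fold change of *Hvem*-/- over WT for the 38 genes, in role groups from top to bottom and ordered within each group. Points are estimates and bars their 95% intervals. The 4 genes in red passed the adjusted threshold, and 11 genes, all with a value above 0, had an unadjusted p under 0.05.

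Of the 7 genes around the APC/C core, *Ube2c* rose. It encodes the ubiquitin-conjugating enzyme that starts the chains the APC/C builds. *Ube2c* had 639.3, 923.7 and 659.7 normalized counts in *Hvem*-/- samples, against 441.3, 429.4 and 356.2 in WT samples. *Hvem*-/- replicate 4 was the highest and even the lowest *Hvem*-/- sample exceeded all WT samples. Its log2 fold change of 0.86 (SE 0.150, adjusted p = 0.0070 from edgeR) was the largest of the 38, or 1.81 times (95% interval 1.46 to 2.25). *Ube2s*, which extends those chains, had 91.3, 82.1 and 39.0 in *Hvem*-/- and 78.1, 58.8 and 59.7 in WT, with *Hvem*-/- samples both above and below all WT samples (0.12, 95% interval -0.50 to 0.73).

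The coactivator *Cdc20*, which turns the APC/C on at the metaphase to anaphase step, had 277.3, 242.8 and 186.8 normalized counts in *Hvem*-/- and 184.5, 216.4 and 149.4 in WT. The genotypes overlapped (log2 fold change 0.37, SE 0.186, adjusted p = 0.454 from edgeR). *Fzr1*, which encodes Cdh1, the coactivator of late mitosis and G1, averaged 56.5 ± 16.1 in *Hvem*-/- and 56.7 ± 6.27 in WT (SD, n = 3 each). *Pttg1*, which encodes securin, the inhibitor of separase, had 78.0, 83.0 and 99.3 in *Hvem*-/- and 54.7, 63.3 and 59.7 in WT. Its samples did not overlap, yet it did not pass (0.54, SE 0.242, adjusted p = 0.373 from edgeR). *Espl1*, separase itself, had a log2 fold change of 0.25 and *Fbxo5*, the APC/C inhibitor Emi1, 0.26. All 7 genes were above 0, *Fzr1* by 0.0025 only, with a median of 0.26.

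The 12 core subunits of the APC/C were divided evenly around 0, with 6 above and 6 below and a median of 0.016. None passed, and their log2 fold changes ran from -0.29 for the cullin-like *Anapc2* to 0.51 for *Anapc10*, a subunit that helps bind substrates. *Anapc10* rested on 1 sample, *Hvem*-/- replicate 6. It had 54.6, 61.8 and 124.1 normalized counts in *Hvem*-/- and 66.4, 36.6 and 62.7 in WT. *Cdc27*, a subunit of the arm that receives the coactivators, was the only 1 of the 12 with an unadjusted p under 0.05. It had 1008.0, 1093.2 and 1263.9 in *Hvem*-/- and 801.6, 943.2 and 877.5 in WT, without overlap (0.35, SE 0.121, adjusted p = 0.233 from edgeR). *Anapc4*, with 186.0 to 218.7 in *Hvem*-/- and 126.9 to 184.2 in WT, also did not overlap (0.30, adjusted p = 0.546). The other subunits overlapped: *Anapc1* (0.10), *Cdc16* (0.10), *Cdc23* (0.05), *Anapc13* (-0.02), *Anapc7* (-0.02), *Anapc11* (-0.16), *Anapc5* (-0.17) and *Cdc26* (-0.28). The scaffold subunit *Anapc1*, among the better counted, averaged 697 ± 97.8 in *Hvem*-/- and 648 ± 76.4 in WT (SD, n = 3 each), with a 95% interval of -0.19 to 0.38 on the log2 scale. The difference in fold change between the core and the other groups was not tested.

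**Figure D3:**
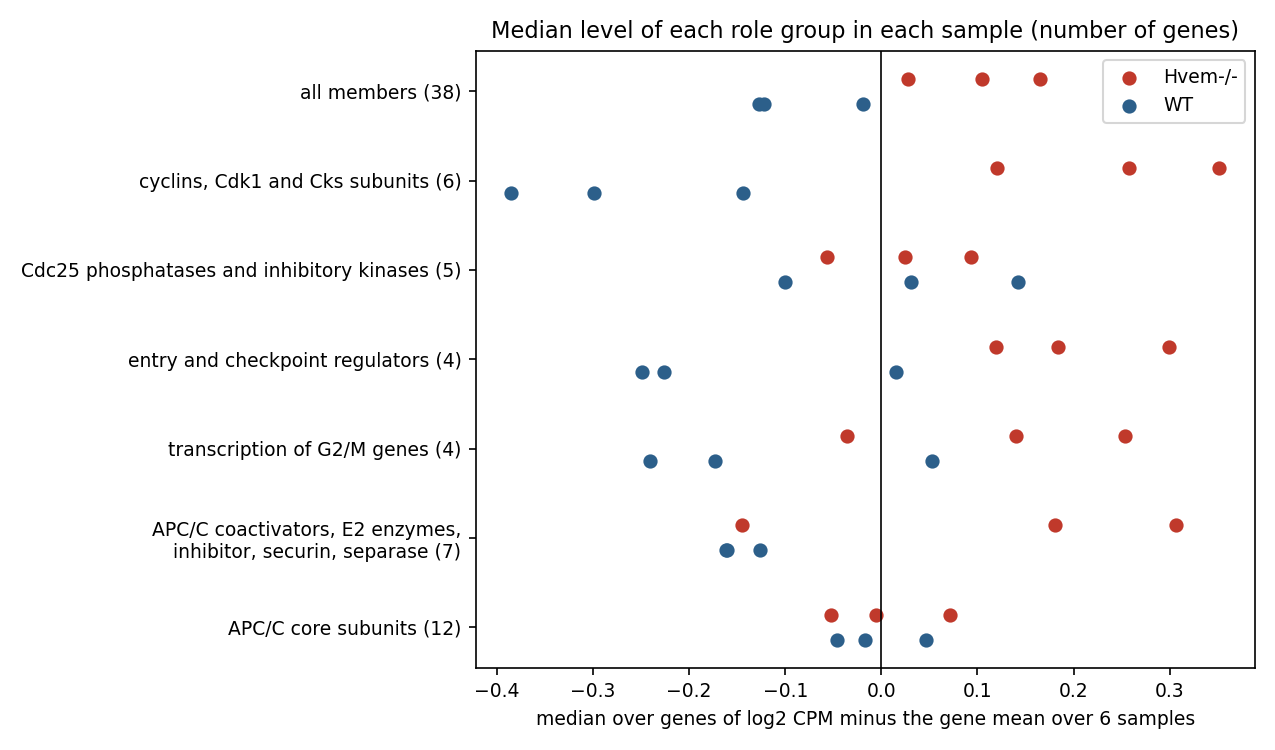
Median over the genes of each role group of log2 CPM minus the gene's mean over the 6 samples, for each *Hvem*-/- sample (red, upper row) and each WT sample (blue, lower row). The cyclin, Cdk1 and Cks genes stood at 0.12 to 0.35 in *Hvem*-/- and at -0.38 to -0.14 in WT, while the APC/C core subunits overlapped.

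Seen by sample, the 38 genes had median deviations of 0.10, 0.17 and 0.03 log2 CPM in *Hvem*-/- (replicates 2, 4 and 6) and -0.13, -0.02 and -0.12 for WT (replicates 1, 3 and 5). For the cyclin, Cdk1 and Cks genes the medians were 0.12, 0.35 and 0.26 in *Hvem*-/- and -0.38, -0.14 and -0.30 in WT. For the genes around the APC/C core they were 0.18, 0.31 and -0.14 in *Hvem*-/- and -0.16, -0.16 and -0.13 in WT, so replicate 6 sat with the WT samples. Within *Hvem*-/-, replicate 4 was the lowest sample for 5 of the 38 genes, replicate 2 for 16 and replicate 6 for 17. Over all genes tested, replicate 4 was the lowest for 30.2%, replicate 2 for 32.8% and replicate 6 for 37.0%. *Cdk1*, *Cdc20*, *Ube2s*, *Gtse1* and *Foxm1* were among those lowest in replicate 6.

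The calls rested on the full set of samples. Leaving out WT replicate 1, 3 or 5 or *Hvem*-/- replicate 4 left 0 of the 38 past the threshold, and leaving out *Hvem*-/- replicate 2 or 6 left 3, *Ccna2*, *Ccnb1* and *Ube2c*. The log2 fold changes stayed at 0.55 to 0.73 for *Ccna2*, 0.73 to 0.86 for *Ccnb1*, 0.67 to 0.95 for *Ube2c* and 0.71 to 0.80 for *G2e3* in these fits, with adjusted p of 0.0027 to 0.207.

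Fold changes of all genes moved with the GC content of their transcripts. The median log2 fold change was 0.21 in decile 1 of GC content, the lowest, and -0.26 in decile 10. By sample, the median deviation of decile 1 minus that of decile 10 was -0.02, 0.09 and 0.61 in *Hvem*-/- (replicates 2, 4 and 6) and -0.36, -0.08 and -0.29 for WT (replicates 1, 3 and 5). *Hvem*-/- replicate 6 and WT replicates 1 and 5 thus carried most of the trend. The 38 genes had a median GC content of 47.4%, near the 48.8% of all tested genes with a value, but their members sat at both ends.

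*G2e3* (37.9% GC), *Anapc10* (39.3%), *Cdc27* (39.9%) and *Mastl* (40.8%) belong to decile 1, where genes at large were also higher in *Hvem*-/-. After each sample was corrected for GC content and transcript length, *G2e3* came to 0.50 on the log2 scale (adjusted p = 0.105 from edgeR) and *Cdc27* to 0.16. With the same correction *Anapc10* came to 0.28 and *Mastl* to 0.18. *Ube2c* (55.5%) belongs to decile 9, whose median was -0.20, and its corrected value was 1.05 (adjusted p = 0.0013 from edgeR). *Ube2c* was then the only 1 of the 38 past the threshold, beside 0.63 for *Ccna2* (46.1%, adjusted p = 0.0151) and 0.72 for *Ccnb1* (44.2%, adjusted p = 0.0127). *Foxm1* (54.6%) came to 0.51 (adjusted p = 0.0840) and *Cdc20* (55.6%) to 0.54 (adjusted p = 0.300). Of the genes below 0, *Pkmyt1* (57.2%, decile 10) came to -0.52, *Anapc2* (55.2%) to -0.08 and *Cdc25b* (54.2%) to -0.07. *Cdc25a* (46.0%) came to -0.22 and *Cdc26* (46.3%) to -0.31. With *Hvem*-/- replicate 6 and WT replicate 1 both left out, a choice made after seeing the data, 0 of the 38 passed in edgeR. The log2 fold changes were then 0.997 for *Ube2c*, 0.84 for *Ccnb1*, 0.70 for *G2e3* and 0.65 for *Ccna2*, and the lowest adjusted p of these was 0.0459.

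**Figure D4:**
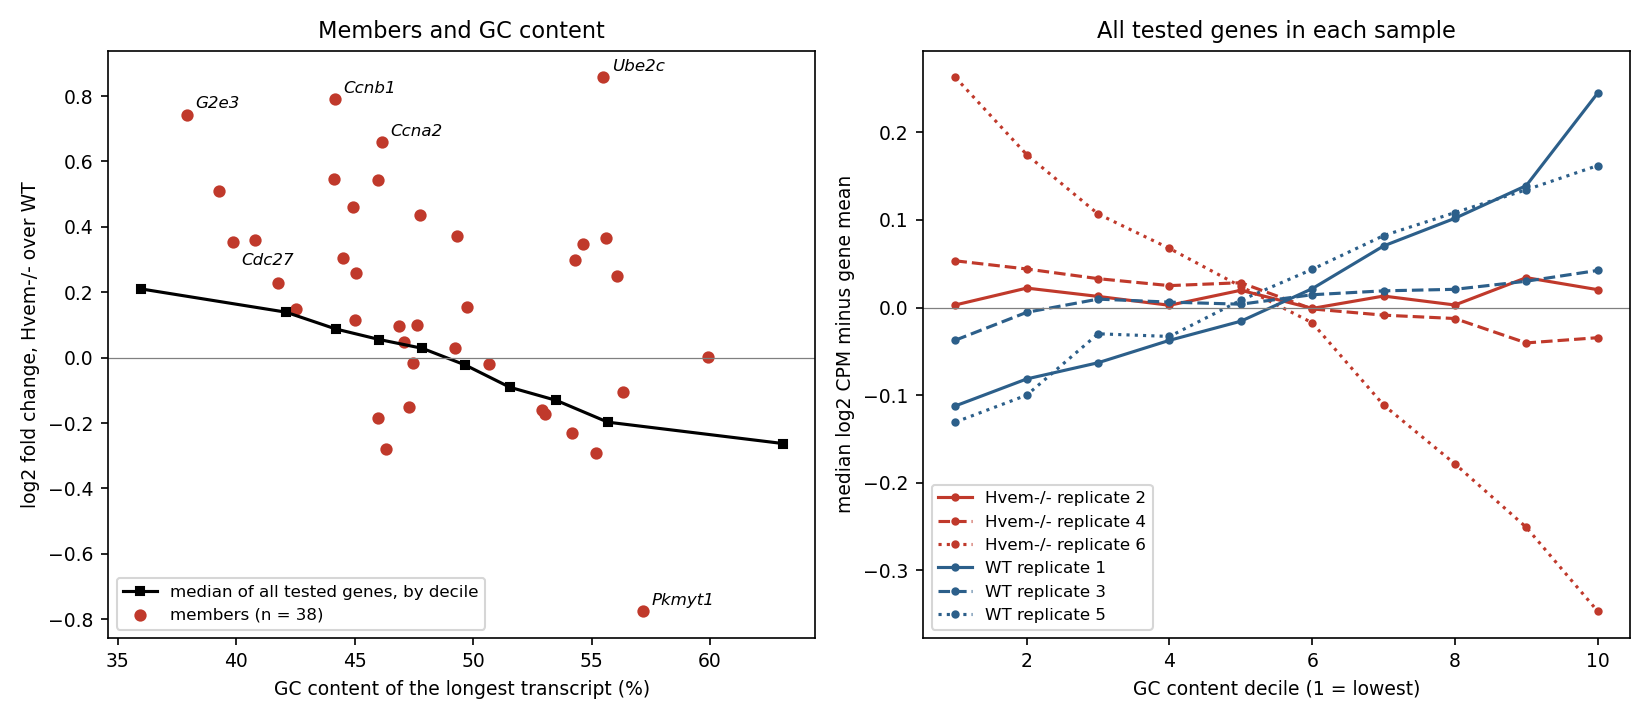
Left, log2 fold change of *Hvem*-/- over WT for the 38 genes (red points) against the GC content of the longest transcript, with the median of all tested genes in each decile of GC content (black squares). Right, the median deviation of all tested genes by decile in each *Hvem*-/- (red) and WT (blue) sample. *Ube2c* lies far above the decile medians at high GC content, and *Hvem*-/- replicate 6 has the steepest line.

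Position and overlap bear on some of these genes. None of the 38 lies within 10 Mb of *Tnfrsf14* (chromosome 4, 154921933 to 154928563, GRCm38) or of *Ptprc*, the CD45 gene by which the donors differ (chromosome 1, 138062861 to 138175708). The nearest are 36.5 and 42.5 Mb away. *Ccna2* (chromosome 3, 36564865 to 36572150, minus strand) shares exonic bases with *Exosc9* on the other strand, and *Ube2c* (chromosome 2, 164769898 to 164778822, plus strand) with *Tnnc2*. Whether reads were counted by strand is not given in the sources used here. *Exosc9* averaged 54.4 ± 3.16 normalized counts in *Hvem*-/- and 49.4 ± 11.1 in WT (SD, n = 3 each; log2 fold change 0.14), and *Tnnc2* had at most 3 reads in a sample. Copies elsewhere in the annotation were searched by name only. *Ccnb1* (chromosome 13, 100778650 to 100786570), *Ccnb2* and *Cks1b* each have 1 copy with a related name (*Ccnb1-ps*, *Ccnb2-ps* and *Cks1brt*). Copies with unrelated names were not searched for in any of the 38 genes. How reads shared with copies were assigned is not given.

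The rest of the pathway was read from further lists. Of 19 other G2 and mitotic kinases, phosphatases and cyclins, 17 were tested, 0 passed in edgeR, and the median log2 fold change was 0.20. Aurora A, *Aurka* (0.40, adjusted p = 0.409), and the phosphatase *Cdc14b* (0.39, adjusted p = 0.233) were higher at an unadjusted p under 0.05, and 0 were lower. *Cdc14b* had 429.9, 425.6 and 445.7 normalized counts in *Hvem*-/-, against 316.3, 329.6 and 342.8 in WT, with no overlap. Of 15 further APC/C parts, checkpoint inhibitors and ubiquitin partners, 14 were tested and 0 passed, with a median of 0.10. The checkpoint protein *Bub3* alone had an unadjusted p under 0.05 (0.35, adjusted p = 0.300).

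Of 10 other parts of the MuvB, DREAM and B-MYB machinery, which represses or activates these genes through the cell cycle, 0 passed and the median was 0.20. *Mybl1*, which encodes A-MYB, a factor of GC B cells, was the only 1 of them with an unadjusted p under 0.05. It had 5605.8, 5146.5 and 6766.2 normalized counts in *Hvem*-/-, against 4585.9, 4271.2 and 4117.0 in WT. The samples did not overlap, and the log2 fold change was 0.43 (SE 0.111, adjusted p = 0.101 from edgeR). Its transcript has 37.0% GC, in decile 1, where the median of all tested genes was 0.21. Over the alternative fits the log2 fold change of *Mybl1* ran from 0.16 to 0.51.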

How the data were processed

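Libraries of sorted GC B cells were amplified with the Ovation RNA-seq System V2. STAR and DESeq2 are the tools of the study's methods (no source used here gives their versions). The processing notes of the submitters name CASAVA, TopHat2 2.0.8b, Cufflinks 2.1.1 and mm10 instead. The values the authors deposited are a signal, read counts divided by each sample's DESeq2 size factor. The deposited table also holds the authors' mean of that signal over all samples and their own comparison of WT over *Hvem*-/- (log2 fold change and its standard error, Wald score, p-value and adjusted p-value), which were not used.

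Every value (100%) was a whole multiple of the smallest of its sample, within a relative tolerance of 1e-06, so dividing by the smallest gave back the read counts. After filterByExpr and TMM scaling, edgeR 4.0.16 (R 4.3.3) tested them by its quasi-likelihood method with genotype as the only term, adjusted by Benjamini-Hochberg over all genes tested. The threshold of 0.01 is the study's. Log2 CPM used a prior count of 2. Dividing each log2 fold change by the root of its F statistic gave the standard errors, and these the 95% intervals. No pair of samples within a genotype was alike within counting error (chi-square over degrees of freedom 4.48 to 8.71). The scripts were tested on simulated data. The alternatives were DESeq2 1.42.0, limma 3.58.1 on log2(value + 1) and log2(value + 0.5), other factors, filters and thresholds, each sample left out, and a loess correction (span 0.5) on the GC content and the length of each gene's longest GENCODE vM21 transcript, known for 98.8% of the tested genes. The genes, role groups and lists were chosen with earlier results of these data known. Within each role group, genes were given with their values when they passed the threshold or had an unadjusted p under 0.05, or else the smallest p, and other genes with their fold change or range. Sample values or means of *Mastl*, *Gtse1*, *Cks1b*, *Pkmyt1*, *Cdc20*, *Fzr1*, *Ube2s*, *Anapc1*, *Anapc4* and *Anapc10* were added after their values had been seen. Symbols were matched to GENCODE directly for 20929 of the 23337 genes and through a synonym for 1918.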

Additional observations from a re-analysis of the deposited data

How the results depend on the processing

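No paired analysis was run because no source used here says which samples share a mouse. The study places both genotypes in the same chimeras, and the test took no account of shared mice. The replicate numbers (2, 4 and 6 in *Hvem*-/-, 1, 3 and 5 in WT) run on through both genotypes and give no pairing.

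The count of the 38 genes past the threshold was 4 in the reported fit and with upper-quartile factors, no filter, DESeq2 or a threshold of 0.05, 3 with DESeq2 size factors or a mean of at least 50 reads, and 1 with limma on log2(value + 1), limma on log2(value + 0.5) or the GC content and length correction. It was 0 to 3 with 1 sample left out and 0 without *Hvem*-/- replicate 6 and WT replicate 1. Over all genes, 21 passed as reported, 84 with no filter, 52 with DESeq2, 49 at a threshold of 0.05, 13 with limma on log2(value + 0.5), 11 with the GC content and length correction, 4 without *Hvem*-/- replicate 6 and WT replicate 1, and 3 to 31 with 1 sample left out. *Ccnb1* was the gene past the threshold with limma and *Ube2c* the one with the correction. In no alternative did the value of *Ccna2*, *Ccnb1*, *Ube2c* or *G2e3* change sign, and 0 of the other pathway genes passed in any.

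The median of the Cdc25 phosphatases and inhibitory kinases was -0.032 with a mean of at least 50 reads, where fewer of its genes were tested, -0.070 with the GC content and length correction, -0.063 without *Hvem*-/- replicate 6 and WT replicate 1, and -0.26 to -0.049 with 1 sample left out. That of the genes around the APC/C core was 0.45 with the correction. With 1 sample left out, the medians ran from 0.40 to 0.58 for the cyclin group, 0.24 to 0.49 for the entry and checkpoint regulators, 0.069 to 0.34 for the transcription group and -0.045 to 0.097 for the APC/C core. Except where named, the cause of these shifts was not tested.

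Genes near 0 changed sign. *Mybl2* came to 0.11 and *Anapc7* to 0.055 with the correction. *Fzr1* came to -0.022 with upper-quartile factors, -0.012 with a mean of at least 50 reads, -0.039 with limma on log2(value + 1) and -0.040 with limma on log2(value + 0.5). Without *Hvem*-/- replicate 6 and WT replicate 1, *Anapc7* came to 0.013 and *Anapc13* to 0.063, beside 0.54 for *Ube2s* and 0.20 for *Cdc23*, which kept their sign. With 1 sample left out, the ranges were -0.021 to 0.11 for *Cks1b*, -0.36 to 0.15 for *Mybl2*, -0.22 to 0.19 for *Fzr1*, -0.099 to 0.40 for *Ube2s*, -0.026 to 0.17 for *Anapc1*, -0.16 to 0.054 for *Anapc7*, -0.16 to 0.16 for *Anapc13*, -0.021 to 0.26 for *Cdc16* and -0.090 to 0.14 for *Cdc23*. Depth limited *Pkmyt1* most, which had 12 to 50 reads per sample and the widest 95% interval of the 38.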
